A study of Mus musculus with 32 samples.

Results

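Roughly equal numbers of glucocorticoid receptor (GR) peaks in this liver series did and did not lie where chromatin was already accessible and already carried C/EBPβ before hormone. The GR peaks that did are described here and called pre-marked. They were chosen by 3 of the deposited interval lists: a GR interval had to share at least 1 bp with a DNase I hypersensitive site (DHS) of vehicle liver and at least 1 bp with a C/EBPβ peak of vehicle liver. The rule found 5713 of 11666 GR peaks (49.0%, 95% Wilson interval 48.1 to 49.9). The other GR peaks were 3523 in a vehicle DHS without vehicle C/EBPβ, 172 on vehicle C/EBPβ outside a vehicle DHS, and 2258 with neither. Overlap with those 3 lists made the class and is given as a description.

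The animals were male C57BL/6 mice, 8 weeks old, and all had been adrenalectomized. They received an intraperitoneal injection of dexamethasone, a synthetic GR ligand, at 1 mg/kg as a cyclodextrin complex in 300 ul, or of cyclodextrin vehicle, with liver examined at 1 h per the series' design text. The lists used come from DNase-seq and C/EBPβ ChIP-seq of dexamethasone and of vehicle liver and from GR ChIP-seq, where the labels give 2 samples to each treatment. The GR list names no treatment. There was 1 list per assay and treatment, with positions only, so read depth is unknown, no difference between treatments has a replicate check, and every p-value compares classes of regions within these lists.

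GR is a nuclear receptor that stays largely in the cytoplasm until a glucocorticoid binds it, then enters the nucleus and binds response elements in DNA. C/EBPβ is a leucine zipper factor of hepatocytes, known for its role in metabolic and acute-phase genes. DNase I cuts DNA where nucleosomes are displaced, so a DHS marks a site that regulatory proteins can reach. Adrenalectomy removes the main source of the animal's own glucocorticoid, so vehicle liver stands for a low-hormone state. Whole liver holds several cell types, and the lists do not tell in which of them a site was accessible or bound.

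Pre-marked GR peaks sat well inside both kinds of interval. Of the 5713, 5691 (99.6%) lay with all 150 bp of the GR interval inside a vehicle DHS, and the median overlap with the C/EBPβ interval was 136 bp. Few were decided by the 1 bp rule. The smallest overlap with C/EBPβ was 1 bp, at chr1:87952871-87953021 (mm9, positions as in the files), and 26 peaks had 10 bp or less. The smallest overlap with a vehicle DHS was 7 bp, at chr17:83582237-83582387. On the other side of the rule, 25 GR peaks in a vehicle DHS missed a vehicle C/EBPβ interval by 10 bp or less, while 2626 of the 3523 were farther than 1 kb from one. The nearest miss of a DHS by a GR peak on vehicle C/EBPβ was 11 bp.

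All 20 chromosomes with GR peaks contributed. Between 39.2% (chromosome X, 40 of 102) and 55.5% (chromosome 3, 342 of 616) of a chromosome's GR peaks were pre-marked, with a median of 49.1%. Of the 3480 windows of 100 kb that held a pre-marked peak, 2170 held 1. A further 536 windows held 3 or more, and 34.9% of all pre-marked peaks lay in these. The like share was not computed for all GR peaks, so it does not show closer grouping of pre-marked ones. The window with most was chr3:82800000-82900000, where 9 of 13 GR peaks were pre-marked among 14 vehicle and 15 dexamethasone C/EBPβ peaks. Windows starting at 137900000 on chromosome 3, at 24400000 and 37700000 on chromosome 13 and at 41900000 on chromosome 14 each held 8. No mm9 gene annotation or sequence was used here, so regions are given by position alone.

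GR and C/EBPβ centres were close together at these sites. The median distance was 18 bp (95% interval of the median 17.5 to 19.0, quartiles 8 and 36.5), against the 150 bp width of a GR interval. Centres were within 5 bp of each other at 948 peaks (16.6%) and within 20 bp at 3080 (53.9%, 52.6 to 55.2). The 3 peaks with coinciding centres in the widest vehicle DHS were chr4:32334546-32334696 in a DHS of 2259 bp, chr8:87231250-87231400 in one of 1438 bp and chr15:54952713-54952863 in one of 1255 bp. An upper bound on the distance was set by the rule, which required overlap.

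The spacing was set beside that of another class chosen by overlap, in which the largest distance was 149.0 bp against 198.5 bp for pre-marked peaks. At these 960 GR peaks in vehicle DHS, C/EBPβ was listed after dexamethasone but not in vehicle, and there 419 (43.6%, 40.5 to 46.8) had centres within 20 bp, with a median of 24.0 bp. The share was higher at pre-marked peaks, with an odds ratio of 1.51 (95% interval 1.32 to 1.73), and higher on 19 of 20 chromosomes. Distances at pre-marked peaks come from the GR and vehicle C/EBPβ lists that chose them. The difference is therefore a description without a test. C/EBPβ intervals in both lists are often a few bp wider than 150 bp, which shifts their centres. With pre-marked peaks limited to intervals at most 5 bp over 150 bp, a setting chosen once the data had been seen, the ratio was 1.90.

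**Figure D1:**
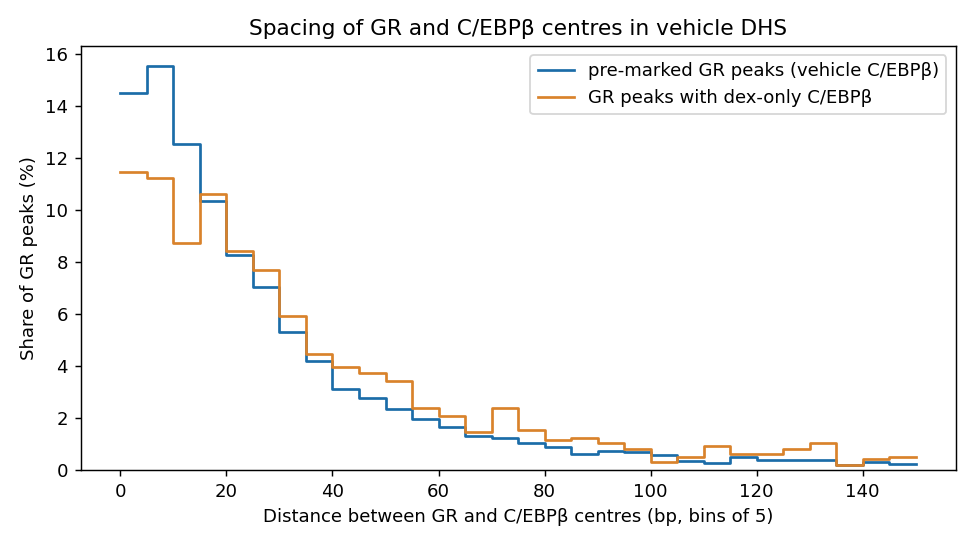
Share of GR peaks (y axis, %) by distance between the GR and the nearest overlapping C/EBPβ centre (x axis, bp, bins of 5 bp), for 5713 pre-marked GR peaks and 960 GR peaks whose C/EBPβ peak was in the dexamethasone list only. Both fall off with distance, and 53.9% of the first and 43.6% of the second lie within 20 bp.

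Pre-marked GR peaks were also more central in their DHS. The GR centre was a median of 53.0 bp (51.0 to 55.0) from the DHS centre, against 77.5 bp (73.0 to 82.0) for the 3523 GR peaks in vehicle DHS without vehicle C/EBPβ. With a DHS cut into 3 equal parts, the middle one held the GR centre at 4549 of 5713 pre-marked peaks (79.6%, 78.6 to 80.6) and at 2263 of 3523 others (64.2%, 62.6 to 65.8), where the share over all GR peaks in vehicle DHS was 73.8%. The odds ratio was 2.18 (1.98 to 2.39) and above 1 on 20 of 20 chromosomes. Position in a DHS was read from the GR and vehicle DHS lists, which also chose the class. The difference is therefore a description without a test. The DHS of pre-marked peaks were somewhat wider, with medians of 746 and 699 bp, and within 10 strata of vehicle DHS width the ratio was 2.82 (2.52 to 3.15).

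**Figure D2:**
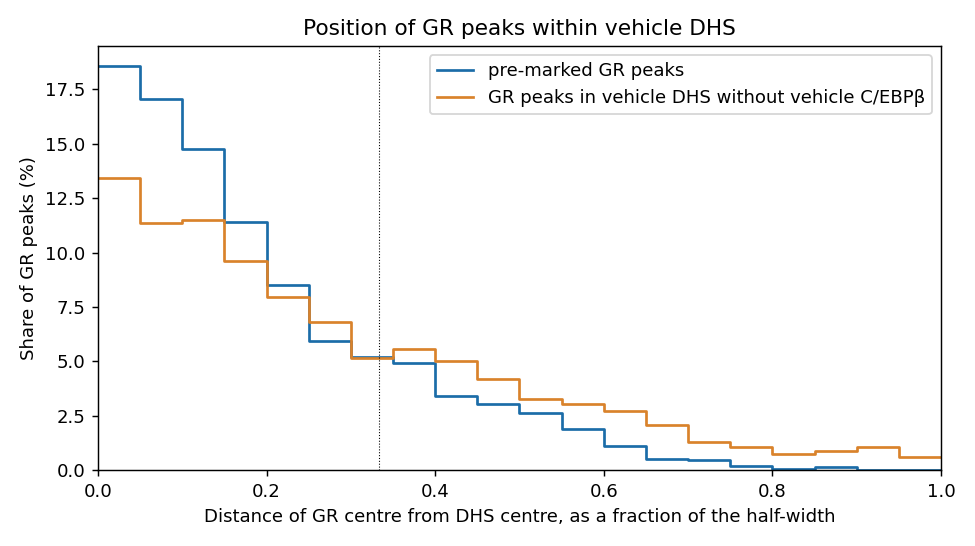
Share of GR peaks (y axis, %) by distance of the GR centre from the centre of its vehicle DHS, as a fraction of the DHS half-width (x axis, 0 is the centre and 1 the edge). The dotted line bounds the middle part of 3; 79.6% of pre-marked GR peaks and 64.2% of GR peaks in vehicle DHS without vehicle C/EBPβ lie left of it.

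A pre-marked GR peak was usually the one GR peak of its DHS. The 5713 peaks lay in 5579 vehicle DHS, of which 5187 (93.0%) held 1 GR peak, 381 held 2 and 11 held 3 or more. Another GR peak shared the DHS at 526 pre-marked peaks (9.21%, 8.49 to 9.98) and at 486 GR peaks without vehicle C/EBPβ (13.8%, 12.7 to 15.0), around 11.0% for both classes together. The odds ratio was 0.634 (0.556 to 0.722), and 0.509 (0.439 to 0.589) within strata of DHS width. Both lists behind this count, GR and vehicle DHS, also chose the class, so it is a description without a test. The DHS with most pre-marked peaks were chr6:71184943-71187679, chr2:164270152-164272035 and chr3:103605315-103606644, each with 3.

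Almost every C/EBPβ peak at these sites was found again after dexamethasone. Of the 5713 pre-marked GR peaks, 5676 lay on a C/EBPβ interval listed for dexamethasone liver (99.4%, 99.1 to 99.5). Over all GR peaks the share was 62.0%, which includes peaks that had no C/EBPβ in vehicle. To set this beside C/EBPβ sites without GR, vehicle C/EBPβ peaks in vehicle DHS were taken as the unit. Those with a GR peak were retained in 5690 of 5727 cases (99.4%), and those without GR in 11484 of 13096 (87.7%, 87.1 to 88.2), with 89.4% over all vehicle C/EBPβ peaks. The odds ratio of retention was 21.6 (15.6 to 29.95; Fisher's exact test, adjusted p = 1.56e-209), and it was above 1 on 20 of 20 chromosomes. Within strata of vehicle DHS width it was 18.9 (13.6 to 26.3). The lists hold no peak height, so whether C/EBPβ peaks with and without GR were equally strong in vehicle liver was not tested. Retained C/EBPβ intervals have the same coordinates in both lists and were often a few bp wider than 150 bp. The 2401 vehicle peaks that were not retained were all 150 bp wide. The interval that assigned GR thus differed with retention itself, and its effect on the ratio was not tested.

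The retained share was lower farther from GR. Among vehicle C/EBPβ peaks in vehicle DHS, 99.5% (3065 of 3080) with a GR centre within 20 bp were retained, and 98.2% (436 of 444) with one at 75 to 150 bp. It was 94.8% (93.4 to 96.0) at 150 bp to 1 kb, where a few wide C/EBPβ intervals still overlapped GR, and 90.7% (89.3 to 92.0) at 1 to 5 kb. It was 82.6% (81.4 to 83.8) where the nearest GR centre was over 100 kb away. The intervals of the shares at 150 bp to 1 kb and at 1 to 5 kb do not overlap, while those at 5 to 20 kb (88.6%) and 20 to 100 kb (88.5%) do. The trend over distance was not tested.

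**Figure D3:**
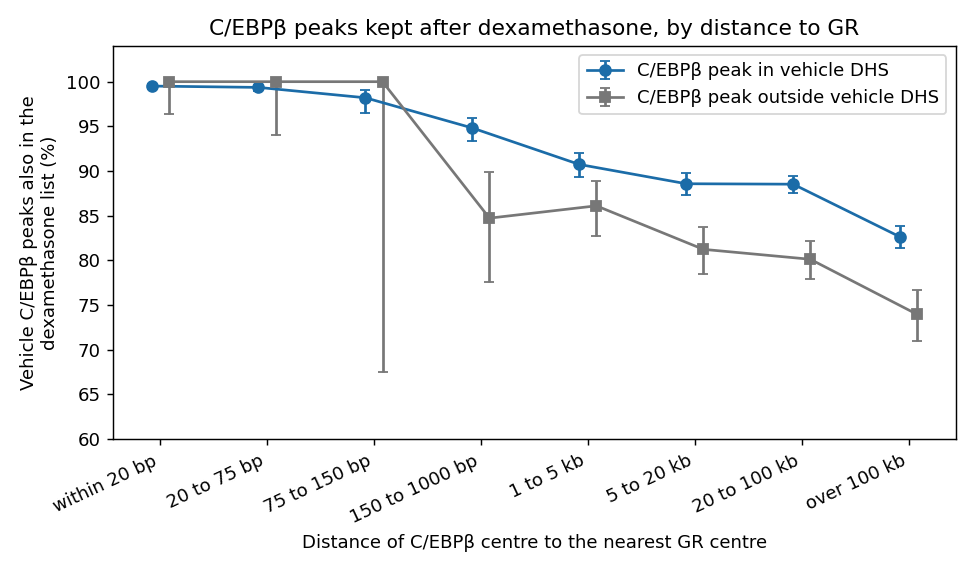
Share of vehicle C/EBPβ peaks that were also in the dexamethasone list (y axis, %, from 60), by distance of their centre to the nearest GR centre (x axis), for peaks in and outside vehicle DHS; bars are 95% Wilson intervals. In vehicle DHS the share goes from 99.5% within 20 bp to 82.6% beyond 100 kb, and outside vehicle DHS from 100% (102 peaks) to 74.0%.

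The accessible sites themselves were kept as well. DHS listed for dexamethasone liver covered at least part of 5707 of the 5713 pre-marked peaks (99.9%, 99.8 to 99.9). Over all GR peaks, which include those outside vehicle DHS, the share was 96.6%. GR peaks in vehicle DHS without vehicle C/EBPβ were so covered in 3513 of 3523 cases (99.7%, 99.5 to 99.9). The difference from pre-marked peaks missed the threshold (odds ratio 2.71, 0.983 to 7.46; Fisher's exact test, adjusted p = 0.0815). Vehicle DHS with a C/EBPβ peak overlapped a dexamethasone DHS in 5573 of 5579 cases where they held a pre-marked GR peak, and in 10810 of 11732 (92.1%, 91.6 to 92.6) where they held no GR, with 85.1% over all vehicle DHS. That odds ratio was 79.2 (35.5 to 177; Fisher's exact test, adjusted p = 8.92e-149), and 35.9 (16.0 to 80.5) within strata of width. With 96.6% of all GR peaks in a dexamethasone DHS, a vehicle DHS that holds a GR peak was likely to overlap one. How far this set the odds ratio was not tested. The odds ratio was 5.01 when DHS below the median width of each list were dropped. In that setting the ratio for GR peaks with against without vehicle C/EBPβ was 0.585, the other direction. It was then past the threshold (Fisher's exact test, adjusted p = 2.55e-05).

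Loss of both marks at a pre-marked peak was rare. A dexamethasone DHS and a dexamethasone C/EBPβ peak were both present at 5672 peaks, the DHS alone at 35 and the C/EBPβ peak alone at 4. The 2 peaks with neither were chr6:138048290-138048440, in a vehicle DHS of 513 bp with centres 4 bp apart, and chr6:141524133-141524283, in one of 438 bp with centres 109 bp apart. The 4 with C/EBPβ alone were at chr1:96943988-96944138, chr4:104587538-104587688, chr9:77594889-77595039 and chr17:24342022-24342172, in vehicle DHS of 415, 384, 310 and 569 bp. All 6 lay in DHS narrower than the median of 746 bp for pre-marked peaks.

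Most DHS with a pre-marked GR peak were wider after dexamethasone, by a small amount. Where a vehicle and a dexamethasone DHS overlapped each other and no other, their widths were compared, with GR and C/EBPβ assigned by the vehicle interval alone. The 5128 such DHS with a pre-marked peak had median widths of 737 bp in vehicle and 797 bp in dexamethasone liver. The log2 of dexamethasone width over vehicle width had a median of 0.08 (95% interval of the median 0.07 to 0.09, quartiles -0.05 and 0.24), and 3333 (65.0%, 63.7 to 66.3) were wider. Over all 44381 matched DHS, 51.1% were wider.

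These DHS widened more often than vehicle C/EBPβ sites without GR and less often than GR sites without vehicle C/EBPβ. Of 10068 DHS with vehicle C/EBPβ and no GR, 4403 (43.7%, 42.8 to 44.7) were wider, with a median log2 ratio of -0.03 (-0.04 to -0.03). The odds ratio for a pre-marked peak against none was 2.39 (2.23 to 2.56; Fisher's exact test, adjusted p = 1.22e-136), and 3.39 (3.14 to 3.65) within strata of vehicle width. Of 2504 DHS with GR and no vehicle C/EBPβ, 2017 (80.6%, 78.9 to 82.1) were wider, with a median log2 ratio of 0.22 (0.21 to 0.24). Against these the odds ratio was 0.448 (0.40 to 0.503; Fisher's exact test, adjusted p = 1.03e-45), and 0.572 (0.508 to 0.645) within strata.

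Vehicle width moved with the result and was therefore followed decile by decile. Narrow vehicle DHS were wider after dexamethasone far more often than broad ones in each of the 3 classes. In the sixth decile (median 645 bp), 68.0% of DHS with a pre-marked peak were wider, 83.0% with GR and no vehicle C/EBPβ, and 35.9% with C/EBPβ and no GR. The share for pre-marked peaks was above that for C/EBPβ without GR in 10 of 10 deciles and below that for GR without vehicle C/EBPβ in 9 of 10. The exception was the narrowest decile, where 82 of 82 and 177 of 179 were wider.

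**Figure D4:**
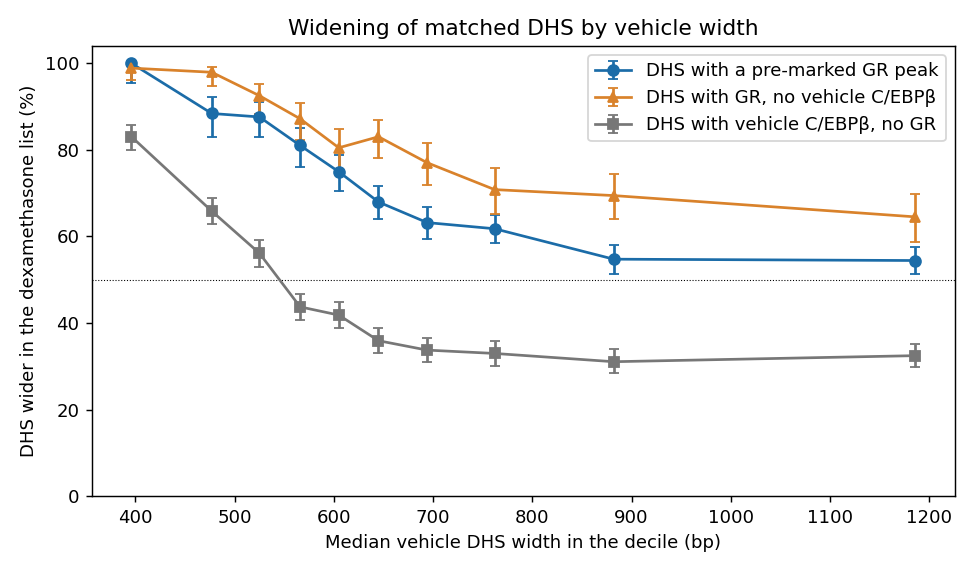
Share of DHS matched between the lists that were wider after dexamethasone (y axis, %), by decile of vehicle width (x axis, median bp of the decile), for 3 classes of DHS; bars are 95% Wilson intervals and the dotted line is 50%. In the sixth decile the shares are 83.0% with GR and no vehicle C/EBPβ, 68.0% with a pre-marked GR peak and 35.9% with C/EBPβ and no GR.

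The order of the 3 classes was also the same on every chromosome. DHS with a pre-marked GR peak were wider in 58.9% (chromosome 17) to 69.8% (chromosome 10) of cases, with a median of 64.3% over 20 chromosomes. Those with C/EBPβ and no GR ranged from 40.2% to 48.7%, and those with GR and no vehicle C/EBPβ from 71.6% to 87.5%. The 3 ranges over chromosomes do not overlap.

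**Figure D5:**
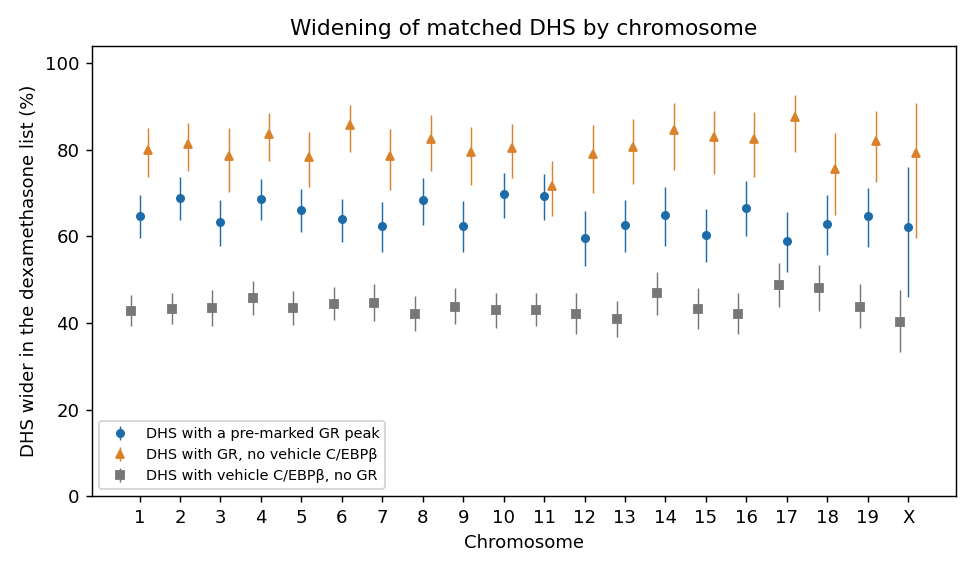
Share of matched DHS that were wider after dexamethasone (y axis, %) on each of 20 chromosomes (x axis), for the same 3 classes; bars are 95% Wilson intervals. Pre-marked sites run from 58.9% to 69.8%, between C/EBPβ sites without GR (at most 48.7%) and GR sites without vehicle C/EBPβ (at least 71.6%).

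Among DHS with a pre-marked peak, widening went with the spacing of GR and C/EBPβ. In 3 comparisons added after seeing the data, 8 in all with those below, DHS with centres within 20 bp of each other were wider in 1761 of 2805 cases (62.8%, 61.0 to 64.6), and DHS with centres farther apart in 1572 of 2323 (67.7%, 65.7 to 69.5). The odds ratio was 0.806 (0.718 to 0.905; Fisher's exact test, adjusted p = 0.000708 over the 8), and 0.721 (0.640 to 0.814) within strata of width. By finer steps the shares were 58.8% within 5 bp, 64.5% at 5 to 20 bp, 66.1% at 20 to 50 bp and 70.6% beyond 50 bp.

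DHS with 2 or more GR peaks were wider more often, in 260 of 347 cases (74.9%, 70.1 to 79.2), than those with 1 (3073 of 4781, 64.3%), with an odds ratio of 1.66 (1.29 to 2.13; Fisher's exact test, adjusted p = 0.000173), and 2.86 (2.17 to 3.76) within strata of width. With the GR centre in the middle part of the DHS or outside it the shares were 65.2% and 64.2%, which did not differ past the threshold (odds ratio 1.04, 0.897 to 1.21; Fisher's exact test, adjusted p = 0.590). Within strata of vehicle width that ratio was 0.606 (0.501 to 0.733), the other direction. The median vehicle width was 706 bp with a GR peak in the middle part and 1142 bp without.

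Single sites lay far from the median. The 5 matched DHS with a pre-marked peak with the largest gain in width were chr3:97457587-97458266 (679 to 2636 bp, log2 ratio 1.96), chr11:6060800-6061165 (365 to 1369 bp), chr3:65416275-65416559 (284 to 1026 bp), chr8:93416197-93416912 (715 to 2544 bp) and chr2:169773561-169774072 (511 to 1690 bp). The 5 with the largest loss began with chr5:138426786-138428094 (1308 to 567 bp, log2 ratio -1.21) and chr4:61743201-61744578 (1377 to 610 bp). The others were on chromosome 7 (1379 to 626 bp), chromosome 6 (log2 ratio -1.14) and chromosome 13 (1104 to 539 bp). At least a doubling was found at 71 of the 5128 DHS, and a fall to 50% or less at 8. Over all 44381 matched DHS these counts were 667 and 506. Among the 2504 with GR and no vehicle C/EBPβ they were 118 and 4, and among the 10068 with vehicle C/EBPβ and no GR 69 and 118. Doubling was thus not particular to pre-marked sites.

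The gain in width was not the same at both ends. In 4745 matched DHS with a single, pre-marked GR peak, the edge nearer to GR moved outward by a median of 32.0 bp (29.0 to 34.0) and the far edge by 8 bp (5 to 10). The near edge moved out more in 61.7% (60.3 to 63.1). In DHS with 1 C/EBPβ peak and no GR, the edge nearer to C/EBPβ moved by 5 bp and the far edge by -19.0 bp, and the near edge led in 61.2% (60.2 to 62.1). The 2 shares did not differ past the threshold (odds ratio 1.02, 0.951 to 1.10; Fisher's exact test, adjusted p = 0.590), and within strata of width the ratio was 1.11 (1.03 to 1.19). A like asymmetry was thus present at sites without GR. In DHS with GR and no vehicle C/EBPβ the near edge led in 66.0% (64.1 to 67.9), and the odds ratio for pre-marked sites against these was 0.830 (0.749 to 0.919; Fisher's exact test, adjusted p = 0.000709).

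Most vehicle DHS with a pre-marked GR peak, 4984 of 5579 (89.3%), held 1 vehicle C/EBPβ peak. In the other 595 (10.7%, 9.88 to 11.5) there were 2 or more, against 460 of 11732 with C/EBPβ and no GR (3.92%, 3.58 to 4.29), and 6.16% of all vehicle DHS with C/EBPβ. These shares are a description without a test, since the vehicle C/EBPβ list chose the class and a DHS with more of its peaks offers GR more intervals to overlap. A further C/EBPβ peak in the dexamethasone list only lay in 108 of the 5579 (1.94%, 1.61 to 2.33) and in 174 of the 11732 (1.48%, 1.28 to 1.72), with 2.05% of all vehicle DHS with C/EBPβ. The crude odds ratio of 1.31 (1.03 to 1.67; Fisher's exact test, adjusted p = 0.0387) turned to 0.778 (0.607 to 0.996) within strata of width, so no direction is given.

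The surroundings of pre-marked GR peaks were compared with those of GR peaks in vehicle DHS without vehicle C/EBPβ. The nearest other GR peak was a median of 8224 bp (7766 to 8722) away, against 7247 bp (6644 to 7922). Another GR peak lay within 10 kb at 3062 of 5713 (53.6%) and 1953 of 3523 (55.4%), with 52.3% over all GR peaks. This difference missed the threshold (odds ratio 0.928, 0.853 to 1.01; Fisher's exact test, adjusted p = 0.0932). More vehicle DHS within 25 kb than the median of 5 were found around 43.0% and 42.8% of the peaks (39.4% over all GR peaks; odds ratio 1.01, 0.927 to 1.10; Fisher's exact test, adjusted p = 0.829).

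Nearby DHS found in only 1 of the lists differed, in comparisons also added after seeing the data. The dexamethasone list holds 63473 DHS and the vehicle list 56794, so absence from a list can also follow from its length. A DHS absent from the vehicle list lay within 10 kb of 2024 pre-marked peaks (35.4%, 34.2 to 36.7) and of 1440 GR peaks without vehicle C/EBPβ (40.9%, 39.3 to 42.5), an odds ratio of 0.794 (0.728 to 0.865; Fisher's exact test, adjusted p = 1.41e-06). Over all GR peaks the share was 47.2%, which includes those that lay in such a DHS themselves. A vehicle DHS absent from the dexamethasone list lay within 10 kb of 1022 (17.9%, 16.9 to 18.9) and 534 (15.2%, 14.0 to 16.4), an odds ratio of 1.22 (1.09 to 1.37; Fisher's exact test, adjusted p = 0.00105), with 15.7% over all GR peaks. These directions were shared by 18 and 17 of 20 chromosomes. With the dexamethasone list cut to its widest DHS at the length of the vehicle list, the odds ratios were 0.812 and 1.22.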

How the data were processed

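The interval lists on mm9, the build given in the submitters' processing notes together with CASAVA 1.8, were used as deposited. The authors' values in them are other than counts or scores: positions on a chromosome, with a serial number per interval. The aligner, the peak caller, its threshold and any pooling of samples were not given in the sources used here. Positions are printed as in the files, and intervals were treated as half-open. The 20313 C/EBPβ peaks in both lists have the same coordinates in both. The 3 duplicate rows of the dexamethasone DHS list were dropped, and the number of unused per-sample columns was 0. RNA polymerase II, input, adGFP and adDN-C/EBP samples were not analysed here.

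Classes were compared with Fisher's exact test (two-sided, Woolf intervals) and, for DHS width, Mantel-Haenszel odds ratios over 10 strata; shares have 95% Wilson intervals, which cover counting error only, and medians exact order-statistic intervals. Regions on 1 chromosome are not independent. The 12 planned tests and the 8 added ones were each adjusted by Benjamini-Hochberg. The 12 include the comparisons given above as descriptions without a test. Their small p-values entered the adjustment, and the adjusted p-values of the other planned tests depend on them. The class, the tests and the lists were chosen with earlier results of these data known. Named regions were, by a written rule, the DHS and 100 kb windows with most pre-marked peaks, the 5 widths that rose and fell most, the closest centres, the pre-marked peaks without a DHS after dexamethasone, and the smallest overlaps. Planned motif, GC and gene comparisons were not run, since no mm9 sequence or annotation was used here. Code was tested on simulated data, and overlap counts equalled those of bedtools 2.31.1. Statistics used scipy 1.17.1 and statsmodels 0.14.6 with pandas 2.3.3 and numpy 2.4.6 under Python 3.11.15, and figures matplotlib 3.10.9.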

Additional observations from a re-analysis of the deposited data

How the results depend on the processing

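No paired analysis was possible because each treatment has 1 list per assay, with no column for a single sample. Of 206 values under other settings, 184 were labelled unchanged. For odds ratios, unchanged means the same direction and the same side of the threshold. The 184 include 6 counts of pre-marked peaks and 5 median log2 width ratios for each class of DHS. These have no test and no threshold, and were judged by size alone. The 184 also hold 11 values for centres within 20 bp. They hold 9 each for GR in the middle of the DHS, another GR peak in it and several vehicle C/EBPβ peaks in it. Those comparisons are descriptions without a test, so their labels do not speak for a test result. The number of pre-marked peaks ranged from 4728 to 5713. The odds ratio for another C/EBPβ peak after dexamethasone fell to 1.25 with an overlap of 75 bp or more and to 1.25 with the centre rule (past the threshold in neither), to 1.24 at the lowest with 1 chromosome left out, to 0.946 with DHS at or above the median width and to 0.778 within width strata. With DHS at or above the median width, the odds ratio for lying in a dexamethasone DHS was 0.585, reversed and past the threshold. Also past it there were 0.852 for another GR peak within 10 kb and 1.16 for the edge nearer the peak, by GR. Reversed but not past it were 0.974 for DHS within 25 kb and 0.982 for C/EBPβ intervals at least 10 bp over 150 bp. In the same setting, the median log2 width ratios were 0.07 with a pre-marked peak, 0.15 with GR and no vehicle C/EBPβ and -0.03 with vehicle C/EBPβ and no GR. Another GR peak within 2 kb gave 0.815 and within 50 kb 1.00 (1.003 before rounding), and DHS within 100 kb gave 0.998. Width strata gave 0.987 for the C/EBPβ intervals, 1.11 for the edge and 0.606 for GR in the middle of the DHS. With 1 chromosome left out, the extremes that changed a call or direction were 3.26 for lying in a dexamethasone DHS, 0.911 for another GR peak within 10 kb and 0.984 for DHS within 25 kb. Causes were not tested. Depth is unknown.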

Other observations

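At the 37 pre-marked GR peaks without a C/EBPβ peak after dexamethasone, the median distance between the GR and vehicle C/EBPβ centres was 35.0 bp. A total of 35 lay in a dexamethasone DHS. Of the 32 whose DHS was matched between the lists, 20 lay in a DHS that was wider after dexamethasone. Among all matched DHS with a pre-marked peak 65.0% were wider, and 51.1% over all matched DHS.

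Vehicle C/EBPβ peaks in both lists were a median of 6 bp wider than 150 bp with a GR peak (5690 peaks) and 5 bp without one (11484), all of them in vehicle DHS. An excess of at least 10 bp was found at 29.8% and 28.6%, an odds ratio of 1.06 (0.988 to 1.14; Fisher's exact test, adjusted p = 0.144). Intervals of exactly 150 bp made up 9.63% and 16.2%, a difference seen afterwards and not tested. The 2401 C/EBPβ peaks of the vehicle list alone were all 150 bp wide.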
